A study of Mus musculus with 5 samples.

Results

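The nuclear-encoded subunits of the oxidative phosphorylation complexes were profiled in RNA from lung cells of SPC-GFP mouse pups. They were chosen by gene symbol: every gene with an unambiguous probe set on the array and a name of the Nduf, Sdh, Uqcr, Cox or Atp5 subunit series. The rule gave 81 genes of 18194 measured, of which 33 belong to complex I, 4 to complex II, 8 to complex III, 19 to complex IV and 17 to complex V. Where a gene had several probe sets the one with the highest mean was used, and Ndufa4 and Ndufa4l2 are counted with complex IV, where the product of the first is now placed.

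The material came from timed matings of the SPC-GFP transgenic line with outbred ICR mice, untreated, at postnatal day 2. GFP-positive lungs were picked, dissociated with trypsin, and GFP-positive cells were collected by flow cytometry. Surfactant protein C, for which SPC stands, marks alveolar type 2 cells, which make surfactant. The study held 1 group of 5 biological replicates with 1 array each, so it compared no treatment, age or genotype. Titles call the cells alveolar type 2 while the design text calls them ciliated. Whether a replicate was 1 pup or a pool is not stated, so the p-values below measure the spread between these 5 samples only.

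Of 10 alveolar type 2 markers, 9 were measured and all 9 lay above background, with means from 12.96 to 14.71. All 10 ciliated markers lay above it too, with means from 6.66 to 9.75, where 74.8% of all genes tested did. A stricter background, set by genes restricted to other organs, was passed by 54.7% of all genes. All 9 alveolar type 2 markers passed it, but 4 of the 10 ciliated markers. The joint deviation of the ciliated markers was 1.09 log2 units in replicate 1 and −0.53 to 0.30 in the other replicates. Replicate 3 had the largest difference between the 3′ and 5′ probe sets of the controls Gapdh (1.67, against 1.27 to 1.60 in the other replicates) and Actb (0.845, against 0.542 to 0.599), a sign of RNA or amplification quality. Array medians ran from 7.12 to 7.19.

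Oxidative phosphorylation passes electrons from NADH and succinate through complexes I and II to ubiquinone, on to complex III, cytochrome c and complex IV, where oxygen is reduced. Complexes I, III and IV pump protons, and complex V, the ATP synthase, uses the proton gradient to make ATP. Alveolar type 2 cells are known as mitochondria-rich cells, since surfactant synthesis and secretion use much energy. Most subunits are encoded in the nucleus, and some complex IV subunits exist as paralogues used in muscle, lung or testis.

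Nearly all of the subunit genes gave signal above background. Background was set on each array at the 95th percentile of the signals of 76 chemosensory receptor genes, which was between 5.45 and 5.71 on the deposited log2 scale, and a gene was called when limma's one-sided moderated test on the 5 arrays gave a Benjamini-Hochberg adjusted p under 0.05 over all genes. By this rule 78 of the 81 (96.3%) lay above background, where 74.8% of all genes tested did. The 3 exceptions were Cox7b2 and Cox8c, paralogues known from testis, and Ndufb4, an accessory subunit of complex I. The rule also called 9 of 37 measured genes restricted to other organs, so a call at low signal does not by itself show expression. The median of the means over the 81 genes was 12.77, and 37 had a mean above 13. Signals of different probe sets depend on their probes and were not ranked against each other.

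**Figure D1:**
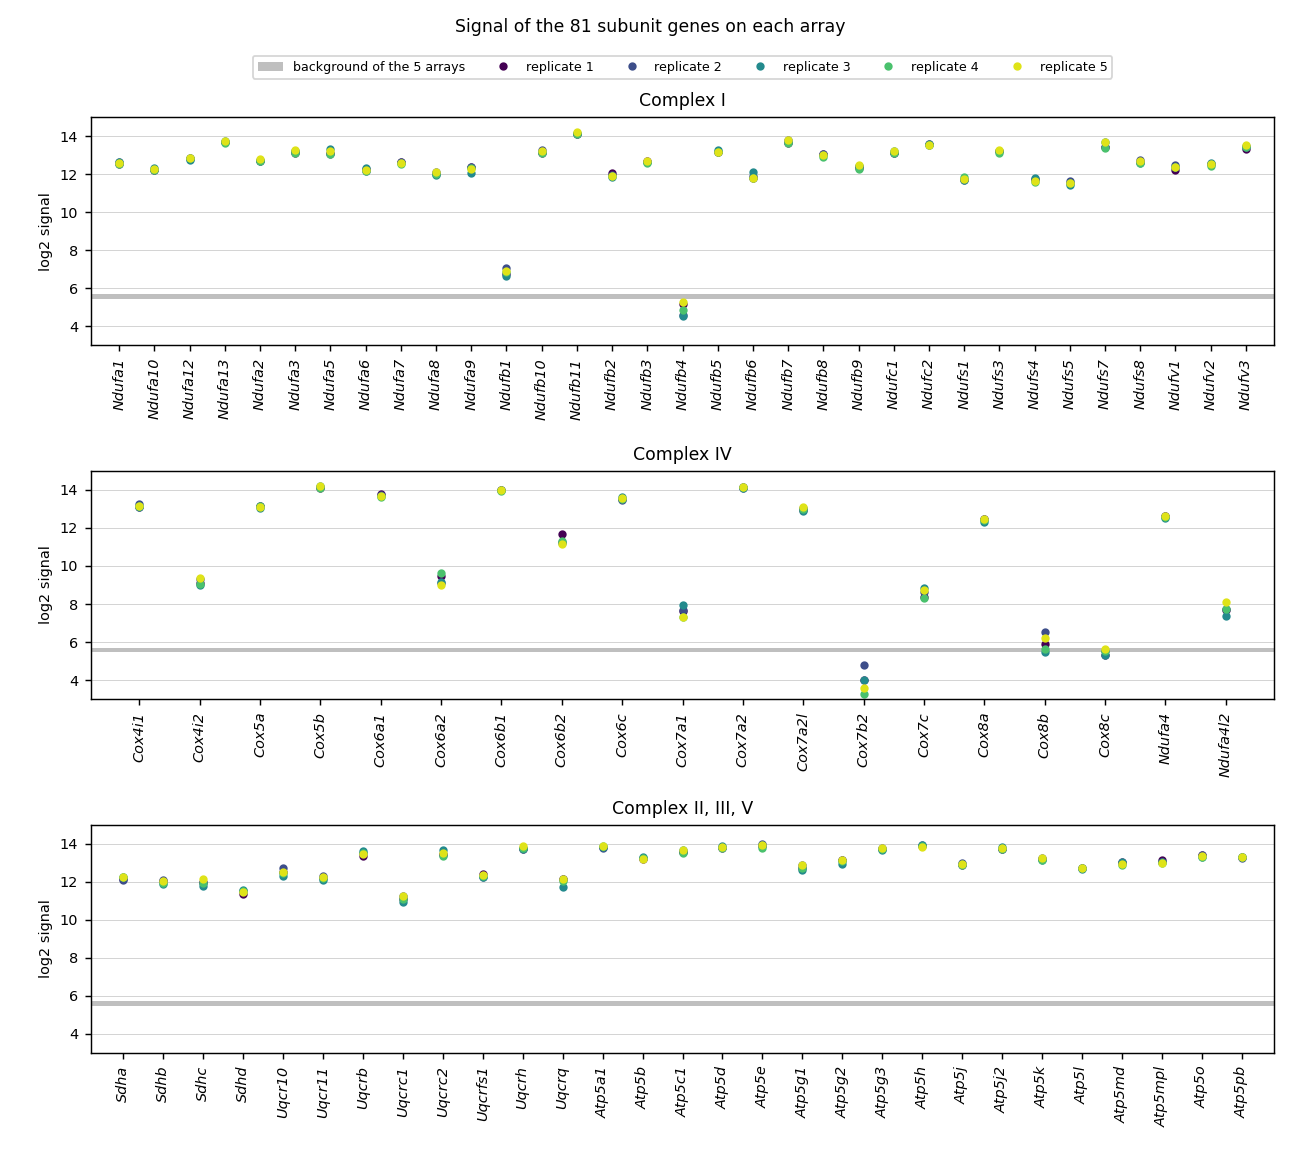
Log2 signal of the 81 subunit genes on each of the 5 arrays, grouped by complex. Points are single arrays, and the grey band spans the background of the arrays, from 5.45 to 5.71. Most genes sit far above the band with points that overlap, while Ndufb4, Cox7b2 and Cox8c lie at or below it and Cox8b just above. Heights of different genes rest on different probes and are not comparable.

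The core subunits of complex I, the NADH dehydrogenase, carry its flavin and iron-sulphur clusters and its quinone site. All 6 analysed were called, where 74.8% of all genes tested were. Ndufv1, which binds NADH, read 12.22, 12.48, 12.38, 12.38 and 12.39 in replicates 1 to 5. Ndufv2 read 12.50, 12.52, 12.57, 12.45 and 12.55. On these chosen probe sets the arrays lay close together, and replicate 1 was the low one for Ndufv1. A probe set of Ndufv1 with a mean of 12.30 was also lowest in replicate 1, at 12.18. Another (mean 11.92) was lowest in replicate 4, at 11.82. The further probe sets of Ndufv2 were highest in replicate 2, at 12.67 and 12.22. The first of these read 11.90 to 12.11 in the other arrays. Ndufs1, the largest iron-sulphur subunit, averaged 11.75 ± 0.062 (SD, n = 5 here and for all values below), Ndufs3 13.19 ± 0.059 and Ndufs8 12.65 ± 0.079. Ndufs7, next to the quinone site, read 13.43, 13.43, 13.69, 13.39 and 13.67, so that replicates 3 and 5 lay above the other three arrays. It was the core subunit of complex I with the widest spread (SD 0.145). The other probe set of Ndufs7 read 11.77 in replicate 3 and 11.95 in replicate 5, with the other arrays at 11.70 to 11.86.

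The accessory subunits of complex I, which surround the core, made up the largest class. Of the 33 complex I genes 32 were called, where 74.8% of all genes tested were. A variance below that fitted by limma for genes of the same mean was seen for 27 of the 32 (84.4%). Among the other genes above background that share was 50.7%. Ndufb11, in the membrane arm, averaged 14.12 ± 0.046 and Ndufa13, also known as Grim19, 13.70 ± 0.039. Ndufb6 peaked in replicate 3 (12.10, with the other arrays at 11.77 to 11.89) and Ndufa9 was lowest there (12.08, with the others at 12.26 to 12.40). The other probe set of Ndufb6 (mean 11.32) was highest in replicate 1, at 11.45, and read 11.31 in replicate 3. Ndufb4 read 5.18, 4.61, 4.56, 4.85 and 5.28, all below background. Its value rests on 1 probe set, and further probe sets that list Ndufb4 together with near-identical genes were left out, so the reading does not show that the transcript was absent. Ndufb1, also with 1 probe set, averaged 6.84 ± 0.16.

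Complex II, succinate dehydrogenase, links the tricarboxylic acid cycle to the chain. All 4 of its genes were called, beside 74.8% of all genes tested. The flavoprotein gene Sdha read 12.16, 12.08, 12.23, 12.24 and 12.27 in replicates 1 to 5. The iron-sulphur subunit gene Sdhb averaged 12.00 ± 0.090. The membrane anchor genes Sdhc and Sdhd averaged 11.96 ± 0.12 and 11.49 ± 0.086. Replicate 3 was lowest for Sdhb and Sdhc and highest for Sdhd, whose chosen probe set is of a type that can detect several genes. The other probe set of Sdhd (mean 11.19) read 11.13 in replicate 3, with the other arrays at 11.11 to 11.34. The direction of Sdhd in that replicate thus depended on the probe set.

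In complex III, the cytochrome bc1 complex, all 8 genes were called, beside 74.8% of all genes tested. Uqcrfs1, the Rieske iron-sulphur protein gene, read 12.41, 12.25, 12.26, 12.32 and 12.35. The core protein gene Uqcrc1 read 11.08, 11.26, 10.93, 11.08 and 11.24, and Uqcrc2 read 13.44, 13.38, 13.65, 13.38 and 13.50. Replicate 3 was thus the lowest array for the first core protein and the highest for the second. The small subunit gene Uqcrq read 12.12, 12.15, 11.74, 12.04 and 12.17, with replicate 3 below the rest. A dimmer probe set of Uqcrq (mean 6.32) was highest in that replicate, at 6.48. Complex III had the largest median SD of the 5 complexes (0.104) and a median ratio to the variance fitted for genes of the same mean of 1.41.

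Complex IV, cytochrome c oxidase, had 17 of 19 genes (89.5%) above background, where 74.8% of all genes tested were. The stricter background was passed by 14 of the 19, with 54.7% of all genes. The subunits used in most tissues were steady. Cox4i1, the regulatory subunit IV used in most tissues, read 13.11, 13.24, 13.11, 13.16 and 13.14, and Cox5a averaged 13.12 ± 0.032. Cox6b1 averaged 13.99 ± 0.030, Cox7a2 14.14 ± 0.022 and Cox6a1 13.69 ± 0.052, all with ranges of 1.10-fold or less over the arrays. The further common subunit genes Cox5b, Cox6c and Cox8a averaged 14.15 ± 0.061, 13.54 ± 0.065 and 12.43 ± 0.068. Cox7c read 8.36, 8.64, 8.86, 8.33 and 8.73 on a probe set that can hybridise to several transcripts, and its other probe set averaged 5.88. Levels on different probe sets are not comparable, so these readings do not show that the transcript was scarce. Cox7b was not analysed here.

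In the catalytic head and stalk of complex V the arrays nearly coincided on the chosen probe sets. Atp5a1 and Atp5b encode the alpha and beta subunits, which bind nucleotides, and averaged 13.83 ± 0.033 and 13.23 ± 0.038. Atp5c1, the rotating gamma subunit gene, averaged 13.59 ± 0.062. The other probe set of Atp5c1 (mean 9.08) read 9.59 in replicate 3, with the other arrays at 8.90 to 8.99. Atp5d and Atp5e, the delta and epsilon subunits of the stalk, averaged 13.82 ± 0.031 and 13.90 ± 0.062, and Atp5o, part of the peripheral stalk, 13.36 ± 0.055. Atp5pb, the stalk's subunit b, had the smallest SD of all 81 genes (0.0216), with 13.29, 13.26, 13.31, 13.32 and 13.31. All 17 complex V genes were called, where 74.8% of all genes tested were. Of the 17, 15 (88.2%) had a variance below that fitted for genes of the same mean, against 50.7% of other genes above background.

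The c-ring of the ATP synthase turns as protons pass, and 3 genes, Atp5g1, Atp5g2 and Atp5g3, encode the same mature c subunit behind different import sequences. All 3 were lowest in replicate 3. Atp5g1 read 12.75, 12.86, 12.63, 12.72 and 12.89 in replicates 1 to 5. Atp5g2 read 13.13, 13.13, 12.92, 13.11 and 13.13, and Atp5g3 read 13.74, 13.77, 13.65, 13.75 and 13.75. For the last pair the other 4 arrays agreed closely, with an SD of 0.00681 for Atp5g2 and 0.0117 for Atp5g3 without replicate 3, against 0.0935 and 0.0476 with it. That array was picked because it stood apart, so a smaller SD without it follows from the choice. Replicate 3 was also the array with the largest 3′ to 5′ differences (Gapdh 1.67). The joint deviation there was −0.86 for cardiac, −0.66 for fibroblast, −0.54 for immune and −0.49 for smooth muscle markers, and 0.02 for alveolar type 2 markers. The part of RNA quality and of other cells in the c-ring values was not tested. Dimmer probe sets of Atp5g1 (mean 6.45) and Atp5g2 (6.46) went the other way and were highest in replicate 3, at 6.74 and 6.58.

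The promoters of these 3 genes are shown because the genes encode 1 mature protein, so their start regions can be read side by side. RefSeq windows on GRCm38.p6 run from 250 bases before to 50 after the start, all on the minus strand, at chr11:96075582-96075881 for Atp5g1, chr15:102670998-102671297 for Atp5g2 and chr2:73911277-73911576 for Atp5g3. Capitals mark matches, on either strand, to the letters GCGCATGC, the core of the site of NRF1, a transcription factor of many respiratory genes.
Atp5g1: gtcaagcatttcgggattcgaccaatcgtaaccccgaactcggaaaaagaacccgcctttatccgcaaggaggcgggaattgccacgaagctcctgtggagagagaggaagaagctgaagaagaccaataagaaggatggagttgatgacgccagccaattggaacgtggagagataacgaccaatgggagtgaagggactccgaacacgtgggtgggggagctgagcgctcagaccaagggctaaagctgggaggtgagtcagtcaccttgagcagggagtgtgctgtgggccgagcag
Atp5g2: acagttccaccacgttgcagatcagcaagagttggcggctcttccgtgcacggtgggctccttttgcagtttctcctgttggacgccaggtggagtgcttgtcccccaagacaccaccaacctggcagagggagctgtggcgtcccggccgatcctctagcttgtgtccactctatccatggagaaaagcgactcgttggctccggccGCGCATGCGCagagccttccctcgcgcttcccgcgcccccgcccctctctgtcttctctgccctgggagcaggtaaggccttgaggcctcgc
Atp5g3: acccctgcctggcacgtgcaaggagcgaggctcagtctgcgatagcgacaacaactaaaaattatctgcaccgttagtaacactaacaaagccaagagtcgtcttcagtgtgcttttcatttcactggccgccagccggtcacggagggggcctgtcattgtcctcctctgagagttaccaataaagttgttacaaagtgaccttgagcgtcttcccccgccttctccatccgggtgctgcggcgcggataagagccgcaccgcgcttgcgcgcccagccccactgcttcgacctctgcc
The windows of Atp5g1 and Atp5g3 held none of the 3 motifs searched. In Atp5g2 the match was read on both strands of 1 palindrome, starting 42 bases before the start site.

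Motif matches were more frequent in subunit promoters than in other promoters, as a description without a test. Promoters were found for 66 of the 81 genes (71 windows), matched by gene identifier. GCGCATGC lay in 12.7% of the subunit promoters and 3.48% of 21191 promoters of other protein-coding genes. CCGGAAG, the core bound by ETS factors such as GABPA, lay in 23.9% against 11.5%, and AAGATGGCG, bound by YY1, in 8.45% against 1.81%. Both strands were searched, and each motif was counted whether or not it overlapped another. Median GC content was 58.3% in the subunit windows and 56.3% in the others, and the median number of CG pairs 19 against 13; the part of base composition in the motif shares was not tested. Among windows of the other genes on the array, the closest comparison, the shares were higher, at 4.02%, 13% and 2.08%. Over all 32851 windows of the table, non-coding genes included, they were 2.71%, 8.86% and 1.40%. By gene, 3 of 15 complex V genes held the NRF1 core, 6 the ETS core and 2 the YY1 letters. For complex I the counts were 2, 4 and 4 of 30, for complex II 1, 2 and 0 of 3, for complex III 2, 2 and 0 of 5, and for complex IV 1, 3 and 0 of 13.

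**Figure D2:**
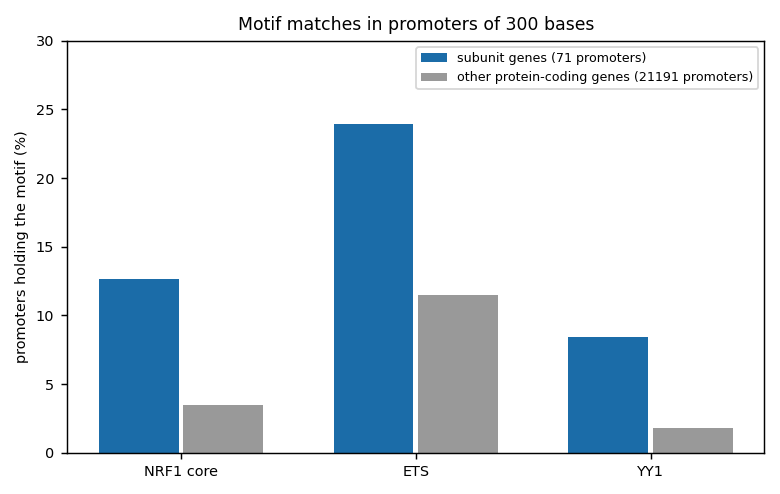
Share of promoter windows of 300 bases that hold the NRF1 core, ETS or YY1 letters on either strand, for 71 windows of subunit genes and 21191 of other protein-coding genes. The subunit bar is the taller one for each motif, at 12.7%, 23.9% and 8.45%.

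Among the complex IV paralogues used in restricted tissues, raw SDs ran above those of the common partners, but their signals were also lower. Set against the variance fitted for genes of the same mean, the ratio was 2.63 for Cox8b, 2.79 for Cox6b2, 1.97 for Cox6a2, 1.07 for Cox7a1, 1.07 for Ndufa4l2 and 0.751 for Cox4i2, and the limma spread test gave each an adjusted p of 0.996. Cox6a2, Cox7a1 and Cox8b are the isoforms of heart and skeletal muscle. Cox6a2 read 9.46, 9.10, 9.14, 9.61 and 8.99 in replicates 1 to 5 and was called (limma adjusted p = 2.11e-14). Replicates 1 and 4 were its high arrays, and its second probe set, with a mean of 6.41, was also highest in these arrays. Cox7a1 read 7.65, 7.71, 7.94, 7.34 and 7.30 and was called (adjusted p = 1.67e-09), with replicate 3 highest and replicate 5 lowest. Cox8b read 5.88, 6.51, 5.49, 5.64 and 6.23, close to background, and its call (adjusted p = 0.0170) was lost without replicate 2 (adjusted p = 0.0912). Replicates 3 and 4 of Cox8b lay within the span of the background itself.

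The muscle isoforms did not share 1 order over the arrays. Of 15 cardiac muscle markers, 12 (80%) lay above background (not Pln, Sln or Ckmt2), where 74.8% of all genes tested did. The stricter background was passed by 5 of the 15. The joint deviation of the cardiac markers was 0.22, 0.16, −0.86, −0.09 and 0.57 log2 units in replicates 1 to 5. Cox8b was lowest in replicate 3 as these markers were, but Cox7a1 was highest there, at 7.94, and lowest in replicate 5, where the cardiac markers were highest. Cox6a2 was lowest in replicate 5 as well, at 8.99. It put the arrays in the same order as the alveolar type 2 markers (0.041, −0.033, 0.016, 0.085 and −0.101). Cox8b put them in the same order as the fibroblast markers (0.08, 0.37, −0.66, −0.14 and 0.35). In a sorted bulk sample fewer cells of a type and less RNA per cell cannot be told apart. The part of muscle cells, fibroblasts and alveolar type 2 cells in these values was not tested.

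Cox4i2, the isoform of subunit IV known from lung, and Ndufa4l2, a paralogue of Ndufa4 known as a hypoxia-responsive gene, were both called. Cox4i2 read 9.12, 9.29, 9.01, 9.04 and 9.39 and Ndufa4l2 read 7.68, 7.75, 7.36, 7.72 and 8.10 in replicates 1 to 5. Both were lowest in replicate 3 and highest in replicate 5. All 14 smooth muscle and pericyte markers lay above background, where 74.8% of all genes tested did. Of the 14, 9 also lay above the stricter background, with 54.7% of all genes. Their joint deviation was −0.11, 0.26, −0.49, 0.04 and 0.32, which puts the 5 arrays in the same order as Ndufa4l2 does. Such a match was not particular to this pair. Cox6a2 ordered the arrays as the alveolar type 2 markers did, and Cox8b as the fibroblast markers did. Other lists moved in the same arrays: cardiac (−0.86 in replicate 3 and 0.57 in replicate 5) and immune markers (−0.54 and 0.28) were also lowest and highest there, and fibroblast markers were lowest in replicate 3 (−0.66). Replicate 3 had the largest 3′ to 5′ difference of Gapdh as well (1.67). The part of such cells and of RNA quality in Cox4i2 and Ndufa4l2 was not tested. The partner Ndufa4 averaged 12.60 ± 0.052 and Cox7a2l, a factor that joins complexes III and IV, 13.01 ± 0.075.

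Cox6b2, the testis isoform of subunit VIb, gave clear signal in these lung cells at 11.67, 11.26, 11.23, 11.31 and 11.16 (limma adjusted p = 1.04e-17, 1 probe set). Replicate 1 stood above the other arrays, as the ciliated markers did (1.09 log2 units), and without it the SD of Cox6b2 was 0.0614, against 0.20 with it. The smaller SD follows from leaving out the array that stood apart. The part of ciliated cells in the replicate 1 value was not tested. Cox7b2 read 3.99, 4.79, 3.99, 3.25 and 3.59 and Cox8c 5.31, 5.55, 5.32, 5.53 and 5.63. All Cox7b2 values lay below the background of their arrays, while Cox8c lay at its edge (limma adjusted p = 0.91).

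**Figure D3:**
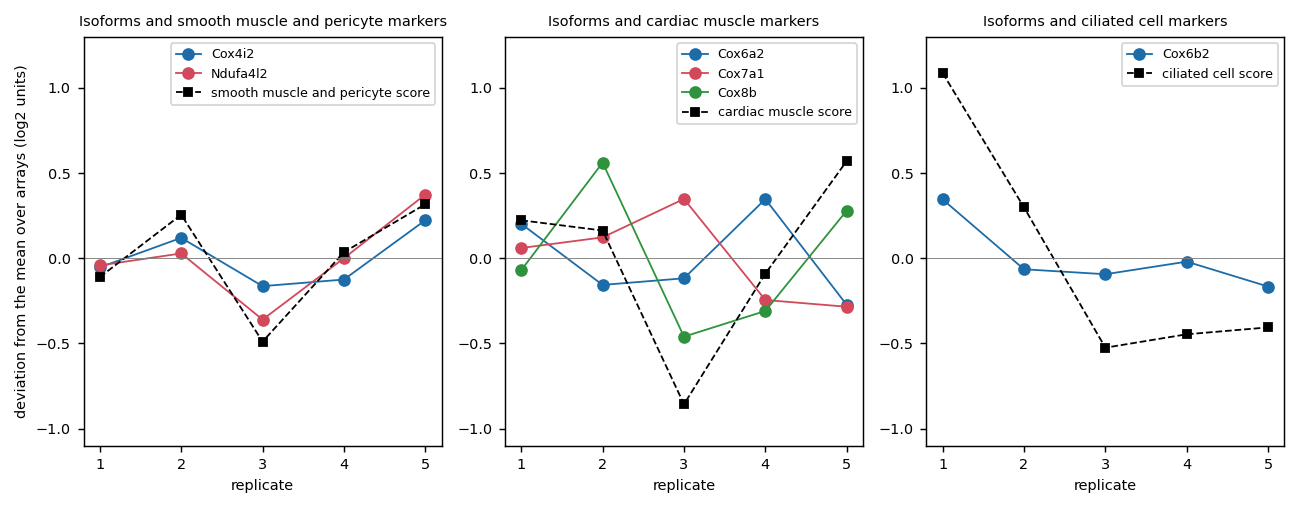
Deviation of 6 complex IV paralogues from their own means (solid lines, circles) on the 5 arrays, beside the joint deviation of a marker list (dashed line, squares), in log2 units. Ndufa4l2 runs with the smooth muscle and pericyte markers, Cox7a1 is highest in replicate 3 where the cardiac markers are at −0.86, and Cox6b2 is highest in replicate 1 where the ciliated markers are at 1.09.

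The promoters of Cox7a1 and Cox8b held fewer CG pairs than those of their common partners. They are shown for that difference, and the muscle isoform Cox6a2 had no matched window. The windows, again RefSeq on GRCm38.p6, lie at chr7:30183921-30184220 on the plus strand for Cox7a1 and, on the minus strand, at chr9:79759804-79760103 for Cox7a2, chr7:140900397-140900696 for Cox8b and chr19:7217567-7217866 for Cox8a. Capitals mark each CG pair.
Cox7a1: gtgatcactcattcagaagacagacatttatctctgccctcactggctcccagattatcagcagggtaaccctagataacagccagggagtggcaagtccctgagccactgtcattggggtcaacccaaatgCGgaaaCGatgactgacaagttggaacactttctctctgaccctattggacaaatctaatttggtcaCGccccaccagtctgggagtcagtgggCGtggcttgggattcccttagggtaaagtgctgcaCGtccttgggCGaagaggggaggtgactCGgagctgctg
Cox7a2: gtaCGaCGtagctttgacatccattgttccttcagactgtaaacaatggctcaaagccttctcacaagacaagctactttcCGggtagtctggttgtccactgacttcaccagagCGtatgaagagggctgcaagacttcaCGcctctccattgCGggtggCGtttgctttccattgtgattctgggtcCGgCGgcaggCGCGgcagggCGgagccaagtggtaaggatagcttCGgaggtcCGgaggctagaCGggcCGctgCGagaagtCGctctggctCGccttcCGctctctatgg
Cox8b: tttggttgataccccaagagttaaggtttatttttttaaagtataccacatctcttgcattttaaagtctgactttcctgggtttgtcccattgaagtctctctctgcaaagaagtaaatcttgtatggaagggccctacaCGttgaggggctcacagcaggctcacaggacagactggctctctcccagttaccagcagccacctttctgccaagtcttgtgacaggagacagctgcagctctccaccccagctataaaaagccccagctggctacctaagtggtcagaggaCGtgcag
Cox8a: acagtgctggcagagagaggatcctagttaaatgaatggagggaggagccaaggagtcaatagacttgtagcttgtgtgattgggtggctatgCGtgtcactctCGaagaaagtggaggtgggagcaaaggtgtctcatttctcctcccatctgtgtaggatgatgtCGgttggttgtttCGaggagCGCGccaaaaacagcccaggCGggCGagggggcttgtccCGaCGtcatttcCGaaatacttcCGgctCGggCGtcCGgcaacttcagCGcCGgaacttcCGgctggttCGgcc
Cox7a1 held 7 CG pairs and Cox7a2 held 20, and Cox8b held 2 where Cox8a held 19. These were the 2 lowest counts among the 71 subunit windows. Cox6b2 had 10 and its partner Cox6b1 17. The window of Cox8a also held the ETS letters at 2 places.

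Replicates agreed closely on the subunit genes. Over the 78 genes above background the median SD was 0.0640 log2 units, against 0.154 over the other 13478 genes above background. Of the 78, 61 spanned less than 1.2-fold over the 5 arrays, a share that was not counted over the other genes. Spread falls with signal, so the variance was also set against that fitted by limma for genes of the same mean. The median ratio was 0.542 for the subunit genes and 0.977 for the others, and 59 of 78 (75.6%) lay under 1, against 50.7% of the others. With means between 11.26 and 13.79, 62 subunit genes had a median SD of 0.0640 and 3524 other genes 0.0998. Signal still differed inside this window, with median means of 12.87 for the subunit genes and 12.05 for the others. The part of that difference in the SDs was not tested. Mitochondrial ribosomal protein genes, a set of like size (76), had a median ratio of 0.60, so low spread was not seen in the subunit genes alone. These are descriptions, since genes are not independent samples.

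**Figure D4:**
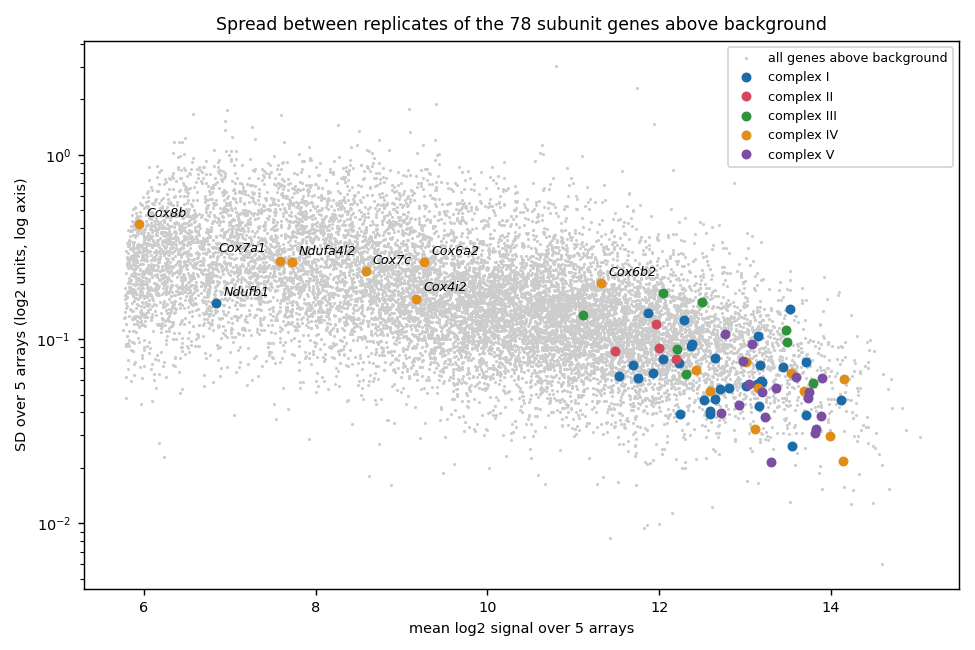
SD over the 5 arrays (log2 units, log axis) against mean log2 signal for the genes above background, with the 78 subunit genes coloured by complex. Most subunit genes lie at high signal with an SD under 0.1, and Cox8b has the largest at 0.420.

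Spread between replicates was also tested, with little power at this size. A one-sided F test of the variance over arrays against the fitted variance (limma, robust trend) called 0 of the 81 at a Benjamini-Hochberg adjusted p under 0.05, with 0% of all 18194 genes called. At an unadjusted p under 0.05 it called 1 of 81, Cox7b2, which lies below background, with 5.58% of all genes. The lowest adjusted p of the 81 was 0.851. S100a9, a neutrophil gene with 66.0 times the fitted variance, had an adjusted p of 0.81, so missing the threshold does not show that a gene was steady. The widest ranges among genes above background were those of Cox8b (2.03-fold), Ndufa4l2 (1.66-fold), Cox7a1 (1.55-fold) and Cox6a2 (1.54-fold).

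The 5 complexes deviated little as wholes. The joint deviation, the mean over a complex's genes above background of the distance from each gene's mean after subtracting the same quantity's median over every called gene, spanned 0.05 log2 units over the arrays for all subunit genes, or 1.04-fold. It spanned 0.05 for complex I, 0.09 for complex II, 0.14 for complex III, 0.10 for complex IV and 0.04 for complex V. Complex III was lowest in replicate 3 (−0.08) and highest in replicate 2 (0.06). Ciliated and cardiac markers, the widest lists, spanned 1.61 and 1.43 log2 units on the same arrays, and alveolar type 2 markers 0.19. Small spans were not particular to the complexes. Tricarboxylic acid cycle and pyruvate dehydrogenase genes spanned 0.05, cytosolic ribosomal protein genes 0.06 and mitochondrial ribosomal protein genes 0.09.

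Replicate 3 was the array at which subunit genes most often took their extreme value. It was the highest or the lowest array for 49 of the 78 genes (62.8%), 22 highest and 27 lowest, where over all genes above background it was so for 51.2%. On the chosen probe sets, genes highest there included Ndufs7, Ndufb6, Uqcrc2 and Atp5b, and genes lowest there included Ndufa9, Uqcrq, Cox4i2 and the 3 c-ring genes. The other probe sets of Ndufs7 and Ndufb6 were not highest in replicate 3, and dimmer ones of Uqcrq, Atp5g1 and Atp5g2 were. Replicate 4 was the lowest array for 26 genes and the highest for 4, together 38.5%, against 31.5% over all genes above background. These counts were taken without centring the arrays. The median deviation over all genes above background was lowest in replicate 4 (−0.0167) and highest in replicate 5 (0.017). The part of this array-wide shift in the counts was not tested. Without replicate 3 the median SD of the subunit genes was 0.0578.

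**Figure D5:**
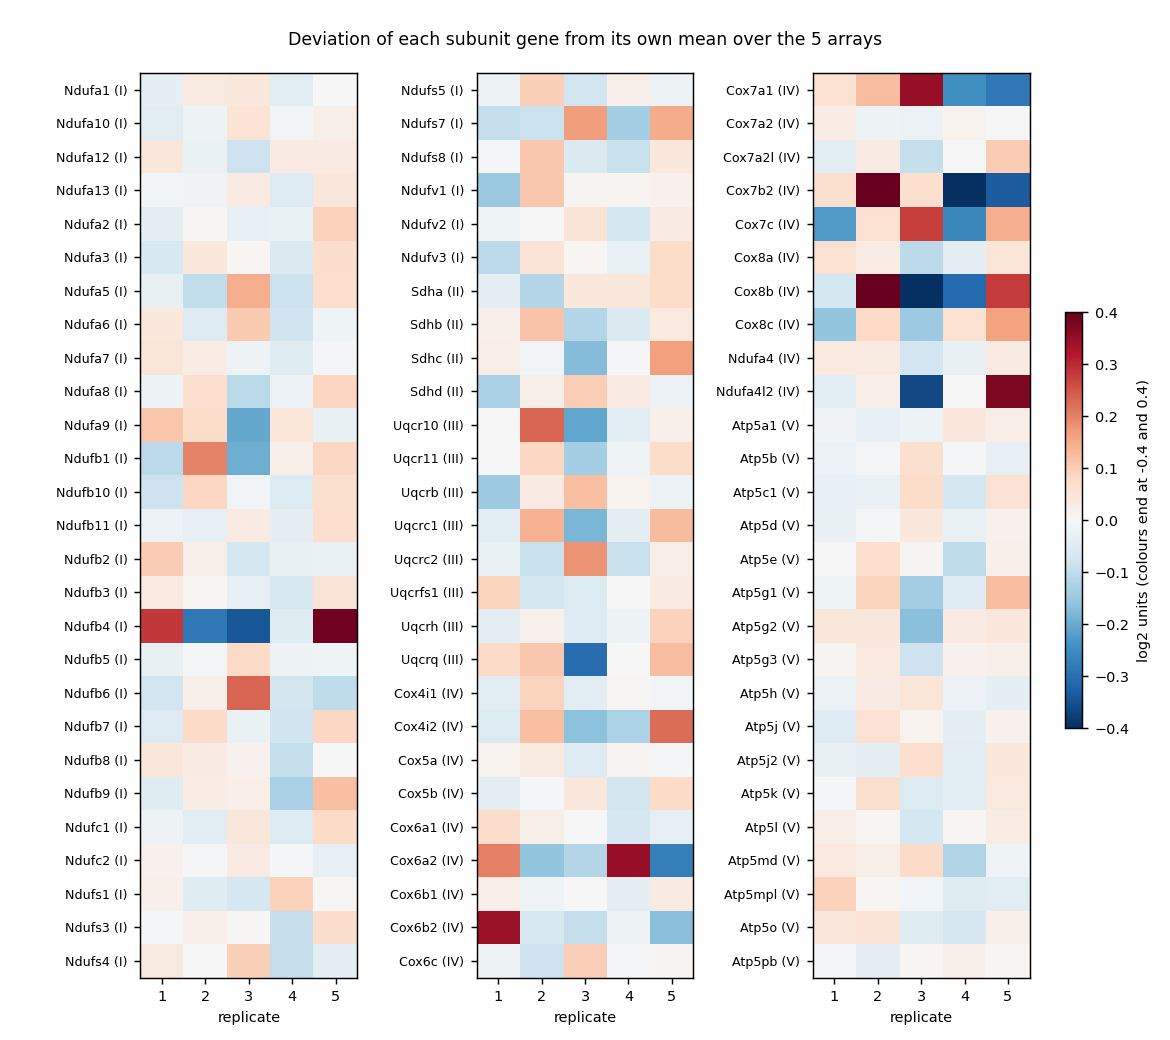
Deviation of each of the 81 subunit genes from its own mean on the 5 arrays, in log2 units, with the complex in brackets. Colours end at −0.4 and 0.4. Strong colours are mostly complex IV paralogues and Ndufb4, and the column of replicate 3 holds both red and blue genes, such as Ndufb6 and Uqcrq.

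Other genes of the pathway gave signal above background as well. Among subunits and carriers that the naming rule leaves out, 8 of 8 measured were called, among them Cyc1, the cytochrome subunit of complex III, at 11.72 ± 0.048. Cytochrome c itself (Cycs) read 11.89, 11.64, 11.34, 11.89 and 11.71, with replicate 3 lowest. Of the assembly factors 41 of 42 were called, the exception being Lyrm7, which helps mature the Rieske protein, at 5.15 ± 0.33. All 17 measured regulators of mitochondrial biogenesis and mitochondrial DNA expression were called, and the coactivator gene Ppargc1a read 8.94, 8.96, 9.73, 8.91 and 8.83, with replicate 3 above the rest. All 17 measured tricarboxylic acid cycle and pyruvate dehydrogenase genes were called too, each list beside 74.8% of all genes. Of the subunits encoded in mitochondrial DNA 1, ND5 of complex I, was analysed, and it read 13.41, 13.53, 13.59, 13.57 and 13.34.

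The probe sets of a gene did not always tell the same story. The 81 genes had 164 probe sets, and 48 genes had more than 1. The median gap between the highest and lowest probe set mean of such a gene was 1.63 log2 units, and 9 genes had a probe set with a mean below the mean background. Cox5b ranged from 14.15 to 4.71 over 6 probe sets, and Sdha from 12.19 to 4.72 over 4. Of the chosen probe sets 36 were plain, 27 detect several transcripts of 1 gene by their suffix, and 11 with the suffix s and 7 with x can detect several genes. A stricter background, the 95th percentile of 37 genes restricted to other organs (7.92 to 8.23), left 74 of 81 called, where 54.7% of all genes tested were. Below it fell Cox7a1, Cox8b, Ndufa4l2 and Ndufb1 beside the 3 genes already named.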

How the data were processed

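RNA was amplified with an Ovation kit (NuGEN), labelled with biotin and measured on 1-colour Affymetrix arrays, per the labels' protocols. The deposited table holds log2 signals of the probe sets, a base inferred from their range (2.46 to 15.24). The summarisation, background correction and normalization by the authors were not given in the sources used here, and the values were used as deposited. Of 45101 probe sets, 34958 had 1 gene symbol in the platform annotation. The 932 with several symbols and the 9211 without a name in that annotation were not used. The fits used limma 3.58.1 in R 4.3.3 on 18194 genes: an intercept fit against background (eBayes with a trend) and an F test of the variance on 4 and 4.22 degrees of freedom, both adjusted by Benjamini-Hochberg over all genes and checked on simulated data. The number of arrays limits the precision. The members, gene lists and tests were chosen with earlier results of these data known. Genes were named by rule: core subunits and tissue isoforms, members not called, the 5 largest SDs and arrays standing apart; Ndufa13, Ndufb11, Ndufb6, Ndufa9, Ndufb1, Atp5pb, Cyc1, Cycs, Ppargc1a, ND5 and S100a9 were added after their values were seen. Alternatives were other backgrounds, probe set rules, normalizations, fit settings and leaving out each replicate. Promoter windows and gene identifiers came from RefSeq tables of GRCm38.p6.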

Additional observations from a re-analysis of the deposited data

Results flagged for a closer look

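In 6 of the 81 subunit genes 1 array stood apart from the other 4 by Dixon's criterion for 5 values (5.49% of all genes showed the same, and chance gives about 1 in 20). In 5 of the 6 that array was replicate 3, which also had the largest 3′ to 5′ difference of the controls (Gapdh 1.67), whose part was not tested. It was low for the c-ring genes Atp5g2 (12.92, against 13.11 to 13.13 in the other arrays) and Atp5g3 (13.65, against 13.74 to 13.77), for Atp5l, the g subunit gene of the ATP synthase (12.65, against 12.72 to 12.74), and for Uqcrq of complex III (11.74, against 12.04 to 12.17). A dimmer probe set of Uqcrq (mean 6.32) went the other way and was highest in replicate 3, at 6.48. Replicate 3 was high for Ndufb5 of complex I (13.24, against 13.14 to 13.16), whose second probe set was not highest there. The other case was Cox6b2 in replicate 1 (11.67, against 11.16 to 11.31). No joint deviation of a complex had an array apart in this sense.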

How the results depend on the processing

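The count of subunit genes above background was 77 to 79 of 81 with the 90th or 99th percentile, the median over probe sets, quantile normalization, median centring, no trend or any replicate left out, 74 with organ-restricted genes as background, and 62 of the 65 genes that have a plain probe set. Of all genes tested, 79.4% were called at the 90th percentile, 66.8% at the 99th and 72.9% with the median over probe sets. The share was 54.7% with organ-restricted genes as background, 72.4% with plain probe sets and 74.3% to 75.1% in the other settings. The calls that turned were Cox8c, 0.36 log2 units above the 90th percentile (adjusted p = 0.00378), Cox8b, −0.54 from the 99th, and, against organ-restricted genes, Cox7a1 at −0.55, Cox8b at −2.19, Ndufa4l2 at −0.41 and Ndufb1 at −1.29. The spread test, which has little power here, called 0 of them in every setting tried, and the median SD ran from 0.0578 to 0.0808. The span of the joint deviation moved for complex V to 0.0642 (median over probe sets), 0.0666 (plain probe sets) and 0.0680 (quantile normalization), for complex III to 0.231 (plain probe sets), and for complex I to 0.0836 (quantile normalization) and 0.0705 (centred on the mean). With 1 replicate left out it ran from 0.0694 (without replicate 3) to 0.148 for complex III and from 0.0565 (without replicate 2) to 0.106 for complex IV. Without replicate 2 it was 0.0229 for complex V (0.0372 with it) and 0.0353 for all subunit genes (0.0544 with it), and without replicate 5 it was 0.0545 for complex II (0.0859 with it). The cause was not tested. No paired analysis was possible because the study has 1 group. Signal over background limits the calls of Cox8b and Cox8c, which lay 0.41 above and −0.07 from it.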
